A study of Rattus norvegicus with 96 samples.

Results

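Nrgn encodes neurogranin, a small protein of dendrites and dendritic spines. It holds calmodulin, the calcium sensor that switches on many kinases and phosphatases, while calcium is low, and releases it when calcium rises or when protein kinase C phosphorylates neurogranin. It is best known from principal neurons of the cerebral cortex and hippocampus, and projection neurons of the striatum, of which the nucleus accumbens (NAc) is the ventral part, also make it, whereas the ventral tegmental area (VTA) is a midbrain region built around dopaminergic neurons.

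Nrgn (ENSRNOG00000010688, chromosome 8) is 1 of the 17637 genes with deposited counts and 1 of the 16879 genes tested. The sources used here give no start or end for it. Its identifier was read from the gene tables of the study and its row was followed across 3 brain regions, both sexes, 10 library preparation batches and 2 treatments, and against Drd1 (ENSRNOG00000023688), the D1 dopamine receptor of striatal projection neurons. Nrgn was chosen with its levels in these libraries known, and its identifier comes from the list of genes that differed in male NAc core. Its levels by region, sex and batch, its relation to Drd1 and its difference between treatments in male NAc core are therefore described here with no test.

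The samples came from 32 rats, 16 of each sex, all F1 progeny of the inbred strains F344 and BN from both directions of the cross. For 4 days, 8 rats of each sex received a daily injection of nicotine (NIC, 0.4 mg/kg) and 8 received saline (SAL), and VTA, NAc core and NAc shell were dissected by hand, on day 17 per the labels, with no further drug. The study's methods place F1 rats of the behavioural tests in early adulthood, and give no age in days at harvest. All males carry the label box 1 and all females box 3, so that sex and box cannot be told apart, and only 1 of the 10 preparation batches holds libraries of both sexes.

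Of 96 libraries, 94 were analysed: male VTA saline 5 R1, from the same rat as R2, and female NAc core nicotine 1 were left out, as neither is among the 94 libraries named in the study's clustering by region-specific genes, and no VTA library of male saline 3 was among the samples. Library totals lay between 15868529 and 27736905 counts. Levels are given as CPM, counts scaled to a common library size with TMM factors, and errors beside means are SD over rats.

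The region labels were checked against marker genes. Th, the rate-limiting enzyme of dopamine synthesis, was at 316 to 894 CPM in 30 of 31 VTA libraries and at 0.740 to 3.89 CPM in all 63 NAc libraries, and the remaining VTA library, labelled female VTA nicotine 2, had 17.9 CPM. Drd1 was at 0.420 to 4.49 CPM in VTA and at 22.6 to 157 CPM in all NAc libraries except those of male saline 1, which had 9.28 CPM in core and 5.09 CPM in shell. In male nicotine 9 the libraries labelled core and shell differed from each other in the direction opposite to the other rats: over 577 genes its difference between core and shell had r = -0.325 with the mean difference of the other rats, against 0.230 to 0.738 in the other 30 rats. Levels by group, region and sex and the relations of Nrgn to Drd1 and to marker genes are also given without these 5 libraries.

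Nrgn was measured in every library, from 1655 counts in female VTA nicotine 1 to 63216 counts in male NAc core saline 8, so that counting error is small beside the spread between rats. It was highest in NAc core, where the 31 libraries ran from 1075 through a median of 2257 to 3343 CPM (mean 2211 ± 616). In NAc shell the 32 libraries ran from 351 through 857 to 2918 CPM (984 ± 513), and in VTA the 31 libraries ran from 82.2 through 249 to 1169 CPM (294 ± 196). Nrgn was thus found at a sizeable level in libraries labelled NAc and was not at 0 in those labelled VTA. No library of cortex or hippocampus was analysed here to set beside these values. In this bulk tissue, fewer cells that express Nrgn and less Nrgn RNA per cell cannot be told apart.

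The mean of NAc core was 7.52 times that of VTA and 2.25 times that of NAc shell, and the mean of NAc shell was 3.35 times that of VTA, and without the 5 libraries these ratios were 8.36, 2.498 and 3.35. In 30 of 31 NAc core libraries Nrgn was above every VTA library, the exception being the library labelled male NAc core nicotine 9 at 1075 CPM. Against the VTA library labelled female VTA nicotine 2 at 1169 CPM, only 10 of 32 NAc shell libraries were higher. The second highest VTA library was at 497 CPM and the lowest NAc shell library at 351 CPM. Shell and VTA thus overlapped without female VTA nicotine 2 too. Without female VTA nicotine 2, the female VTA NIC group ran from 82.2 through 270.0 to 497 CPM (273 ± 157, n = 7) in place of 82.2 through 276 to 1169 CPM (385 ± 348, n = 8).

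Among the 12 groups of sex, region and treatment, male NAc core SAL had the highest mean (2857 ± 417, n = 8), followed by male NAc core NIC (2238 ± 544, n = 8), female NAc core NIC (1968 ± 503, n = 7) and female NAc core SAL (1750.3 ± 399, n = 8). The shell groups came next, with male NIC (1273 ± 341) and male SAL (1220.3 ± 741) before female SAL (726 ± 223) and female NIC (716 ± 363), each of 8 rats. Last were the VTA groups, in the order female NIC, female SAL (298 ± 139, n = 8), male NIC (257 ± 52.4, n = 8) and male SAL (228 ± 80.2, n = 7). Of the 11 steps between neighbours in this order, 2 were larger than the larger SD of the pair: from male NAc core SAL to male NAc core NIC and from female NAc core SAL to male NAc shell NIC. Without the 5 libraries the first of these steps was not (2806 ± 423 against 2404 ± 297 CPM, n = 7 each), the second was, and so was that from female NAc shell NIC to the VTA groups. Male NAc shell SAL was then at 978 ± 304 CPM and male NAc shell NIC at 1177 ± 221 CPM (n = 7 each).

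**Figure D1:**
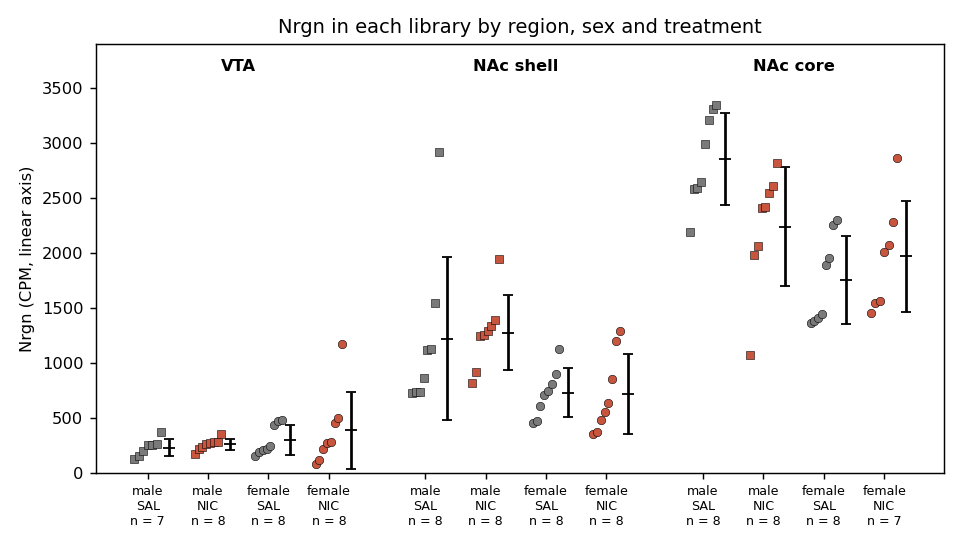
Nrgn in CPM on a linear axis in each of the 94 libraries, grouped by region, sex and treatment. Each point is 1 rat, sorted by value within its group, and the bar beside the points is the mean ± SD. NAc core libraries sit between 1075 and 3343 CPM, and 1 female VTA NIC library at 1169 CPM and 1 male NAc shell SAL library at 2918 CPM stand above the rest of their groups.

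Core and shell could be compared within a rat in 31 animals. Nrgn was higher in the core library in 30 of 31 rats, with a core to shell ratio from 0.552 through a median of 2.35 to 8.15. The rat below 1 was male nicotine 9, with 1075 CPM in the library labelled core and 1948.3 CPM in the library labelled shell, the same rat whose core and shell differed from each other against the other rats over other genes. The next lowest ratio, 1.10, belonged to male saline 1, with 3213 CPM in core and 2918 CPM in shell and with the lowest Drd1 of each region. The highest ratio belonged to female nicotine 8, with 2861 CPM in core and 351 CPM in shell. Drd1, by contrast, was higher in core in 16 of the 31 rats, 5 of 16 males and 11 of 15 females.

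**Figure D2:**
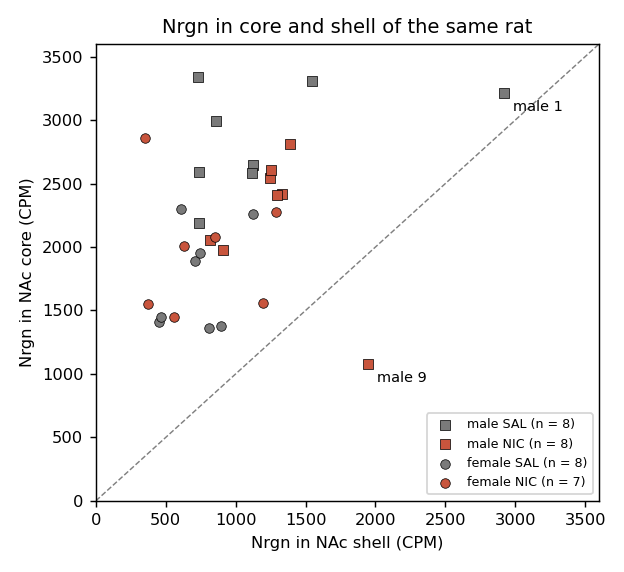
Nrgn in NAc core (vertical axis, CPM) against Nrgn in NAc shell (horizontal axis, CPM), 1 point for each of 31 rats by sex and treatment. The dashed line marks equal levels. Of the 31 rats, 30 lie above the line, male 1 lies close to it and male 9 lies below it.

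Mean Nrgn was higher in males than in females in NAc core and shell. In NAc core the male mean was 2548 CPM and the female mean 1852 CPM, a ratio of 1.38, and 4 of 16 males were above every female. In NAc shell the male mean was 1247 CPM and the female mean 721 CPM, a ratio of 1.73, and 6 of 16 males were above every female. In VTA the male mean was 243 CPM and the female mean 341 CPM, a ratio of 0.713, with no male library above or below all females and medians of 249 CPM in males and 254 CPM in females. Without the 5 libraries the ratios were 1.41 in core, 1.49 in shell and 0.8501 in VTA, where the medians were then 249 and 239 CPM. The ranges of the sexes overlapped in all 3 regions. Because no batch but 1 held both sexes, these differences cannot be told apart from box and preparation batch. Drd1 went the other way in NAc core, with a male to female ratio of means of 0.615, and its ratio was 0.907 in NAc shell.

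The preparation batches differed in Nrgn within a sex and region. Batch means of male NAc core ran from 2385 CPM in batch D (n = 4) to 2937 CPM in batch A (n = 4), a batch of SAL rats only. In male NAc shell they ran from 927 CPM in batch B (n = 2) to 1580 CPM in batch A (n = 4), which holds the 2918 CPM of male saline 1. In female NAc shell they ran from 475 CPM in batch J (n = 4) to 1073 CPM in batch H (n = 2). In female VTA the 2 libraries of batch G held both the lowest and the highest value of the sex, 82.2 and 1169 CPM.

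The calmodulin pathway around Nrgn was described from 5 lists, in which 41 genes other than Nrgn could be matched to an identifier and were tested. Fits over 12 groups with edgeR called 41.3% of all genes higher and 40.3% lower in VTA than in NAc core at an adjusted p under 0.05. Between VTA and NAc shell the shares were 40.5% higher and 40.4% lower, and between NAc core and NAc shell 15.8% were higher and 16.5% lower in core. Against that background, the lists were mostly on the side of the NAc.

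Of its closest relatives, Gap43, the growth cone protein that shares with neurogranin the calmodulin-binding IQ motif, had a log2 difference of 0.02 between VTA and NAc core (SE 0.0483, edgeR adjusted p = 0.648). It was lower in NAc shell than in VTA (log2 difference of VTA over shell 0.15, adjusted p = 0.00396) and than in NAc core (0.12, adjusted p = 0.0398, or 0.0739 with the animal as a block). The level of Gap43 was 495 ± 70.4 CPM in VTA, 486 ± 62.2 CPM in core and 445 ± 64.2 CPM in shell, with overlapping ranges in all 3 regions. Pcp4l1, another small IQ-motif protein, was lower in VTA than in NAc core (log2 difference -1.78, SE 0.118, adjusted p = 3.70e-25), but it was higher in shell than in core (log2 difference of core over shell -0.64, adjusted p = 3.58e-06), the opposite order of core and shell to Nrgn. For Nrgn the same fit gave a log2 difference of -2.92 (SE 0.158) between VTA and NAc core and 1.19 (SE 0.147) between NAc core and NAc shell.

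Of 17 enzymes that calmodulin controls, 12 were lower and 4 higher in VTA than in NAc core, with a median log2 difference of -0.91 against 0.01 over all genes tested. Camkv, a calmodulin-binding kinase-like protein of synapses, was lower in VTA with a log2 difference of -2.70, as were Camk4, a kinase of the neuronal nucleus (-2.46), Camk2a, an abundant kinase of the postsynaptic density (-2.41), and Ppp3ca, a catalytic subunit of calcineurin (-2.20). Nos1, the neuronal nitric oxide synthase, and Mylk, a myosin light chain kinase, went the other way, at 1.43 and 1.143. Between core and shell 7 of the 17 were higher and 3 lower in core, also with the animal as a block, with a median log2 difference of 0.12. Camk4 was among the 7 (1.01, SE 0.0726, edgeR adjusted p = 1.29e-20), at 28.02 ± 4.13 CPM in core, 14.0 ± 3.16 in shell and 5.12 ± 1.62 in VTA, the same order of regions as Nrgn.

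Of 17 genes listed as glutamate receptors, scaffolds and other synaptic proteins, 15 were lower and 1 higher in VTA than in NAc core. The median log2 difference was -1.34. Log2 differences of VTA over core were -3.37 for the scaffold Baiap2, -2.73 for the NMDA receptor subunit Grin2b and -1.96 for the scaffold Homer1. In core against shell, 9 of the 17 were higher and 0 lower by edgeR at an adjusted p under 0.05, and with the animal as a block 8 were higher, with a median of 0.20. Of 4 protein kinase C isoforms, the kinases that phosphorylate neurogranin, 3 were lower in VTA than in core and Prkcd was higher (0.58). The difference was -0.92 for Prkcz and -0.38 for Prkcb. Many of these genes have a symbol here because the study listed them as changed between treatments, so the lists are not a random draw of the pathway.

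The relation of Nrgn to Drd1 was given across NAc libraries as log2 CPM, as a description. Libraries share a scaling to their total, and core and shell libraries of 1 number share a rat. In NAc core Nrgn was lower where Drd1 was higher, with Pearson's r = -0.547 and Spearman's rho = -0.540 over 31 libraries, and without the 2 libraries farthest from the median of Drd1 r was -0.441. In NAc shell r was -0.569 and rho -0.537 over 32 libraries, and -0.402 without the 2 farthest libraries.

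The relation was seen in males. In males r was -0.580 in core and -0.855 in shell (n = 16 each), and in females 0.301 in core (n = 15) and 0.0377 in shell (n = 16), the latter -0.0532 without the 2 female libraries farthest in Drd1. Without male 1 and male 9, r in males was -0.506 in core and -0.892 in shell (n = 14 each). Within the batches of males, after subtraction of batch medians, r was -0.457 in core and -0.790 in shell, and within those of females 0.322 and 0.152. Within treatments, r in male shell was -0.795 in NIC and -0.929 in SAL, and r in male core was -0.732 in NIC and -0.582 in SAL (n = 8 each). In female core r was 0.780 in NIC (rho 0.714, n = 7) and -0.112 in SAL (rho 0.333, n = 8). In female shell r was 0.579 in NIC (rho 0.714) and -0.757 in SAL (rho -0.667, n = 8 each). Whether these values differ between sexes or treatments was not tested.

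Single male libraries show the range. In NAc core, Drd1 was at 9.28, 22.6 and 23.6 CPM in male saline 1, male saline 3 and male nicotine 10, where Nrgn was at 3213, 3306 and 2815 CPM, among the highest of the region. The lowest Nrgn of the region, 1075 CPM in the library labelled male NAc core nicotine 9, came with the highest Drd1 of the males, 127 CPM. Female core nicotine 8 went against this pattern, with the highest Drd1 of all, 157 CPM, and 2861 CPM of Nrgn.

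**Figure D3:**
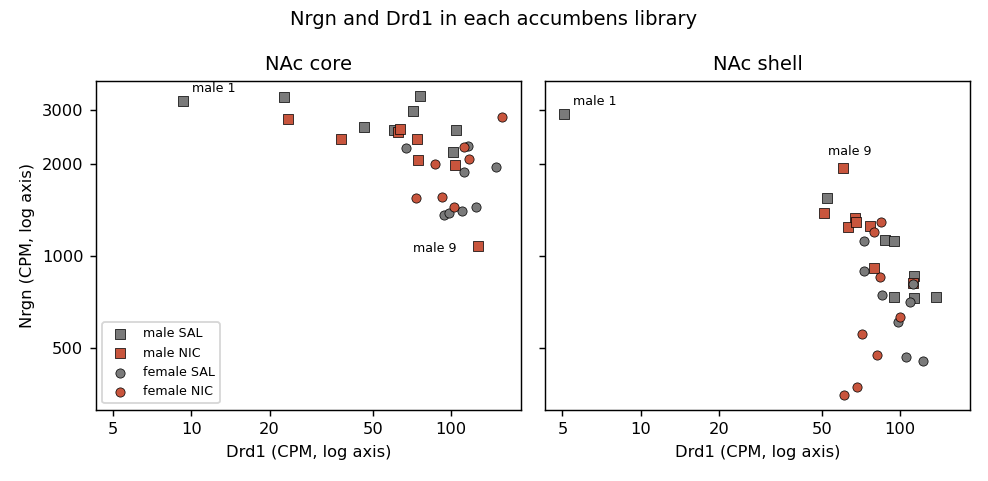
Nrgn against Drd1 in each NAc core (left, 31 libraries) and NAc shell library (right, 32 libraries), both in CPM on log axes, by sex and treatment. Male libraries fall from high Nrgn with low Drd1 to low Nrgn with high Drd1 in both regions, with male 1 at the far left, while female libraries show no common direction.

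Other marker genes were set beside Nrgn within each sex and region. Of 20 marker genes of cortical projection neurons, 6 could be matched to an identifier (Nptx1, Mef2c, Kcnv1, Lamp5, Cux2 and Ccn2), and defining ones such as the vesicular glutamate transporter Slc17a7 had none. These 6 were found in the libraries of each region, at 636 to 1394 CPM summed in core, 406 to 1165 CPM in shell and 146 to 638 CPM in VTA. Which tissue they came from was not tested. The highest VTA sum, 638 CPM, was that of female VTA nicotine 2, and the next was 338 CPM.

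Nptx1, a synaptic pentraxin, had r with Nrgn of 0.846 in male core, 0.713 in male shell and 0.971 in female shell, but 0.114 in female core. The transcription factor gene Mef2c had 0.873, 0.822, 0.946 and 0.113 in the same order, and the potassium channel subunit gene Kcnv1 had 0.853, 0.802, 0.902 and 0.241. Each of these 3 genes was thus higher where Nrgn was higher in male core, male shell and female shell. Over all genes of at least 1 CPM, the share with r above 0.7 was 8.62% in male core, 7.90% in male shell, 6.01% in female shell and 1.46% in female core, against 3 of the 6 cortical genes in the first 3 sets and 0 in female core. Without male 1 and male 9 the list had 2 of 6 genes above 0.7 in male core and 4 of 6 in male shell (2.54% and 7.41% of all genes), with Nptx1 at 0.615 and 0.7601, Mef2c at 0.749 and 0.767 and Kcnv1 at 0.732 and 0.792. Lamp5 had the opposite sign to the other cortical markers in male NAc, -0.368 in core and -0.551 in shell, and -0.0701 and -0.385 without male 1 and male 9.

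The 15 striatal projection neuron markers with an identifier, Drd1 among them, had a negative r with Nrgn in all 15 cases in male core (median -0.453) and in male shell (median -0.812). In male shell 14 of the 15 were below -0.7, against 5.99% of all genes, and without male 1 and male 9 it was 10 of the 15, against 3.88%. Ppp1r1b, the striatal phosphoprotein DARPP-32, had r = -0.449 in male core and -0.839 in male shell, and Pdyn, the prodynorphin gene, had -0.614 and -0.885. These were -0.364 and -0.691 for Ppp1r1b and -0.571 and -0.767 for Pdyn without male 1 and male 9. In females 14 of the 15 were positive in core (median 0.418) and in shell (median 0.292), with Ppp1r1b at 0.580 and 0.451. The summed level of the 15 ran from 810 to 5741 CPM in male core and from 3633 to 8147 CPM in female core, and from 616 to 5428 CPM in male shell and 2180 to 4466 CPM in female shell.

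Genes of neurons at large varied with Nrgn in male NAc. Of 10 pan-neuronal genes, 8 had r above 0.7 in male core (median 0.826) and 6 in male shell (median 0.762), among them Snap25, a protein of the vesicle fusion machinery, against a median of -0.037 in female core and 0.1199 in female shell. In male VTA, where 2.18% of all genes were above 0.7, 0 of the 10 were (median 0.187). Without male 1 and male 9, 3 of the 10 were above 0.7 in male core and 6 in male shell, against 2.54% and 7.41% of all genes in the same 14 libraries. The 17 calmodulin-dependent enzymes had no common direction, with 7 positive in male core (median -0.266), 7 in male shell (median -0.0853), 10 in female core (median 0.217) and 14 in female shell (median 0.455). Of these, 9 were positive in male core and 6 in male shell without male 1 and male 9. The 3 cholinergic neuron genes had r of -0.948 to -0.904 in male shell and -0.920 to -0.885 in female shell, -0.542 to -0.466 in male core and -0.266 to -0.168 in female core. In male shell the range was -0.923 to -0.823 without male 1 and male 9, and in male core -0.541 to -0.435.

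In female VTA oligodendrocyte genes were lower where Nrgn was higher. All 5 oligodendrocyte genes had r below -0.7 in female VTA (median -0.874), against 4.88% of all genes, and also without female VTA nicotine 2 (median -0.828, against 4.15% of all genes). All 5 were negative as well in male VTA (median -0.402, none below -0.7, as for all but 1.11% of genes), male shell (median -0.680) and female shell (median -0.635). In male core 1 of the 5 was positive (median -0.121), and in female core 2 were (median -0.008). In female VTA all 17 genes of the glutamate receptor and scaffold list were positive (7 above 0.7, against 5.23% of all genes). Without female VTA nicotine 2 it was 16 (2 above 0.7, against 2.98%). Of 15 striatal markers 12 were positive in female VTA (4 above 0.7), or 11 without that library (2 above 0.7). Mbp, the myelin basic protein gene, was lowest of the VTA libraries in female VTA nicotine 2, at 14860 CPM, where the VTA median was 23487 CPM. In that library Nptx1 was at 445 CPM, the next VTA value being 133, and Drd1 at 4.49 CPM, which was the highest of the VTA but under every NAc library. The part of other cell types or of neighbouring tissue in any of these relations was not tested.

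**Figure D4:**
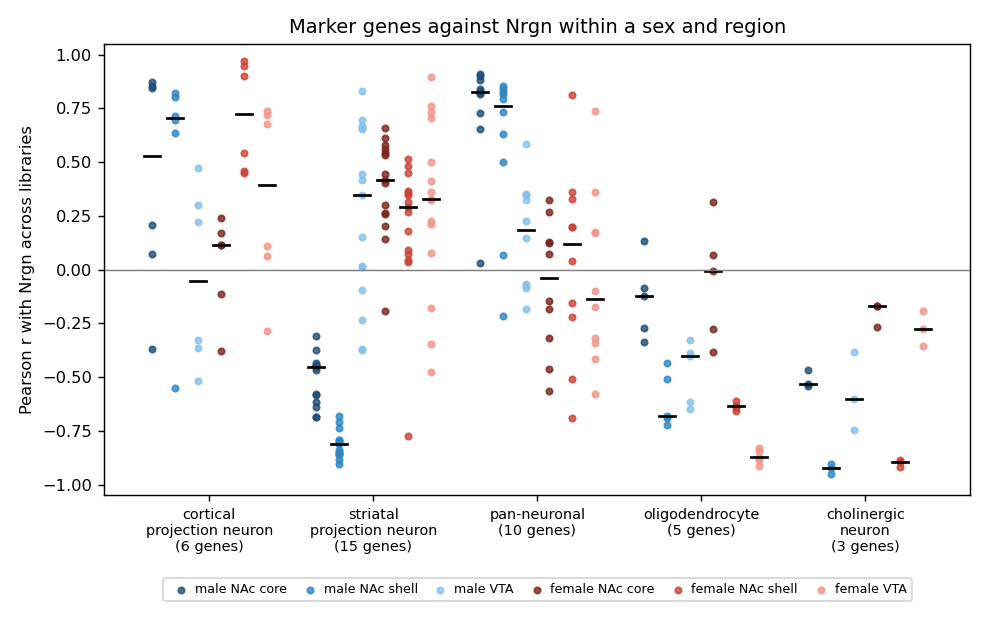
Pearson's r between Nrgn and each marker gene across libraries (vertical axis), for 5 lists of marker genes within each of 6 sets of sex and region. Each point is 1 gene and the black line is the median of the list. Striatal markers are all below 0 in male core and male shell and mostly above 0 in the other sets, and oligodendrocyte markers are lowest in female VTA.

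The genes most like Nrgn over the 63 NAc libraries were found as those with the highest r after the medians of sex and region were subtracted, among 14293 genes of at least 1 CPM. Of the first 10, 5 have a symbol in the study's tables: Inka2, an actin regulator (r = 0.912), Ctxn1, the small membrane protein cortexin 1 (0.896), Gng13, a G protein gamma subunit (0.877), Cyth2, an exchange factor for ARF GTPases (0.875), and Etv5, an ETS transcription factor (0.867). Each also had r of at least 0.834 in either sex taken alone, which is no separate evidence, as these libraries also chose the genes. Without male 1 and male 9, Ctxn1 (0.916) and Inka2 (0.903) came first, while Gng13, Cyth2 and Etv5 were no longer among the first 10 and Pfkp (0.846) and Cacng3 (0.846) were. Like Nrgn, Inka2 had its highest mean in male core (203 ± 30.5 CPM), before female core (163 ± 21.1), male shell (152 ± 38.3) and female shell (100.1 ± 31.8). Ctxn1 was also the only one of the 5 genes most like Nrgn in VTA that has a symbol (r = 0.905, n = 31; 0.907 without female VTA nicotine 2).

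Of the 5 genes with the lowest r in the NAc, Igsf1, an immunoglobulin superfamily member (-0.816), and Sparc, a secreted matrix glycoprotein (-0.810), have a symbol. Without male 1 and male 9 neither was among the 5, and Gng4 (-0.796) and Aldh5a1 (-0.790) were. Sparc was at 633 ± 93.4 CPM in male core, 733 ± 80.0 in female core, 849 ± 117 in male shell, 1062 ± 215 in female shell and 1630 ± 193 and 1705 ± 93.1 in female and male VTA, the reverse of the order of Nrgn by region.

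Whether Nrgn differed between NIC and SAL rats at harvest was asked in each sex and region. In male VTA the 8 NIC rats ran from 173 through 266 to 349.7 CPM and the 7 SAL rats from 123 through 248 to 366 CPM, a log2 fold change of NIC over SAL of 0.18 (SE 0.188, edgeR adjusted p = 0.923). In male NAc shell NIC ran from 814 through 1271 to 1948.3 CPM and SAL from 729 through 988 to 2918 CPM (0.06, SE 0.263, edgeR adjusted p = 0.99968). In both comparisons every NIC rat lay within the range of the SAL rats. Without male saline 1 the change in male shell was 0.39, and without male 1 and male 9 it was 0.27.

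In female VTA NIC ran from 82.2 through 276 to 1169 CPM and SAL from 155 through 225 to 481 CPM (0.37, SE 0.439, edgeR adjusted p = 0.8294), and without female VTA nicotine 2 the change was -0.12. In female NAc core the 7 NIC rats ran from 1451 through 2008 to 2861 CPM and the 8 SAL rats from 1364 through 1668 to 2299.6 CPM (0.16, SE 0.153, adjusted p = 0.861). In female NAc shell NIC ran from 351 through 593 to 1291 CPM and SAL from 452 through 728 to 1121 CPM (-0.01, SE 0.258, adjusted p = 0.989). The groups overlapped in all 3 female comparisons.

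None of these 5 changes was past the threshold, and two-sided exact permutation tests on log2 CPM gave p = 0.299 in male VTA, 0.528 in male shell, 0.919 in female VTA, 0.379 in female core and 0.713 in female shell, with 0.880 as the lowest value adjusted over the 5. The SEs leave room for sizeable changes in either direction in VTA of females and in the shell of both sexes. The male effect minus the female effect was -0.20 in VTA (SE 0.416, edgeR adjusted p = 0.907) and 0.08 in NAc shell (SE 0.407, adjusted p = 0.971). With edgeR, 0 genes of all tested passed an adjusted p of 0.05 in any of the 6 comparisons, a share of 0%, while DESeq2 called 0 to 9. At an unadjusted p under 0.05 the shares were 5.63% in male VTA, 9.85% in male NAc core, 2.46% in male NAc shell, 9.24% in female VTA, 6.46% in female NAc core and 10.1% in female NAc shell.

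In male NAc core, the comparison through which the gene entered the study's list, NIC ran from 1075 through 2414 to 2815 CPM and SAL from 2191 through 2817 to 3343 CPM. The means were 2238 ± 544 and 2857 ± 417 CPM, and the log2 fold change was -0.35 (SE 0.145). In the same comparison 4 of 5 meningeal fibroblast markers were higher in NIC at an unadjusted p under 0.05 (median 0.53). The share over all genes was 9.85% in either direction. The summed level of these markers was 337 to 979 CPM in NIC and 229.8 to 546 CPM in SAL. Of 5 choroid plexus markers 1 was higher (median 0.58, summed level 13.0 to 47.5 and 6.72 to 23.02 CPM). Pan-neuronal genes had a median of -0.12 with 0 of 10 at that p, and cortical markers -0.12 with 1 of 6 lower. The 1 midbrain glutamatergic marker was lower at that p (-0.43). Nrgn had r of -0.618 to -0.562 with the meningeal genes in male core, or -0.542 to -0.1699 without male 1 and male 9. Marker symbols come from the study's lists of genes with a low p. The part of any of these markers in the difference was not tested. Of the 8 NIC rats 3 were below every SAL rat and none was above all of them. Without the library labelled male NAc core nicotine 9 the value was -0.25, and without male 1 and male 9 it was -0.22. Within batch C, the only one with male NAc core libraries of both treatments, it was -0.68 (4 NIC and 2 SAL rats), and -0.39 without male 9.

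Batch was tied to treatment in the other comparisons too, and the batches with both treatments gave log2 differences of 0.32 in male VTA (batch C, 2 and 2 rats), 0.70 in male NAc shell (batch C, 3 and 2, or 0.40 without male 9), 0.23 and 0.57 in female VTA (batch J, 2 and 2, and batch L, 1 and 2), 0.75 in female NAc core and 0.03 in female NAc shell (batch J, 2 and 2 each). Batch and treatment cannot be told apart for the remaining rats.

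**Figure D5:**
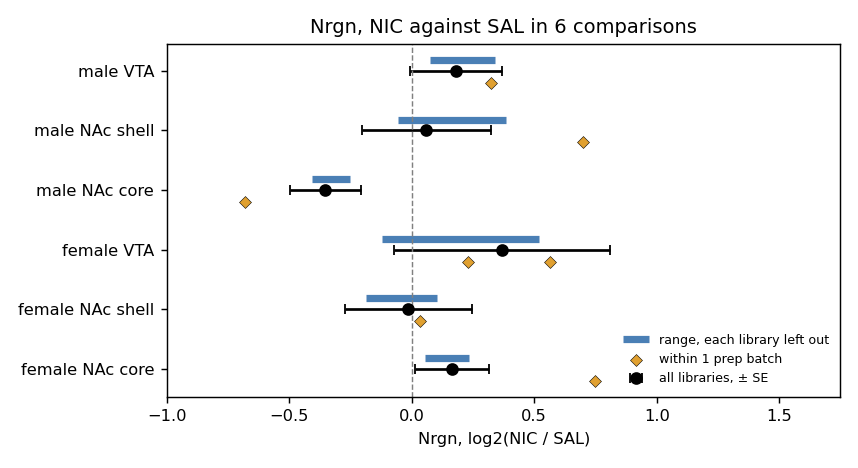
Log2 fold change of Nrgn, NIC over SAL, in each sex and region. Black points with bars are the estimate ± SE from all libraries, blue bars the range when each library was left out in turn, and yellow diamonds the differences within 1 preparation batch. The range includes 0 in male NAc shell, female VTA and female NAc shell.

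Of the 41 pathway genes other than Nrgn, edgeR called 0 at an adjusted p under 0.05 in any of the 6 comparisons, and at an unadjusted p under 0.05 the counts were 5 in male VTA, 5 in male NAc core, 1 in male NAc shell, 5 in female VTA, 9 in female NAc core and 11 in female NAc shell. Since the symbols come from lists of genes with a low p in these same comparisons, these counts are not independent evidence. As shares of the 41 they were 12.2%, 12.2%, 2.44%, 12.2%, 22% and 26.8%, to be read beside the shares over all genes given above. In female NAc shell 10 of the 11 were lower in NIC. So were 14 of the 15 striatal projection neuron markers at an unadjusted p under 0.05 (median log2 fold change -0.30). The share over all genes was 10.1% in either direction. Of 5 hypothalamic neuron markers 3 were higher at that p (median 0.74), as was the 1 midbrain glutamatergic marker (0.996). Of 6 septal, hippocampal and thalamic markers 2 were higher and 1 lower. Marker symbols come from the same lists, so the marker counts are not independent evidence either. The part of these markers was not tested. DESeq2 called 1 of the 41, Pcp4l1 in female NAc shell, with a log2 fold change of -0.43 (SE 0.0977, DESeq2 adjusted p = 0.0248, edgeR adjusted p = 0.465). In male VTA the 5 were all lower in NIC, among them Camk1d (-0.41) and the glutamate receptor gene Grm5 (-0.49). In that comparison 3 of 5 oligodendrocyte markers (median -0.25) were also lower at an unadjusted p under 0.05. So were 2 of 3 cholinergic neuron markers (median -1.41). Over all genes the share was 5.63% in either direction, and the part of these markers was not tested.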

How the data were processed

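RNA of the 3 regions was sequenced by the authors, who trimmed reads with fastp 0.20.0, quantified them on Rnor 6 with Salmon 0.12.0 (versions per the submitters' processing notes) and summed transcripts to genes with tximport. The deposited values are estimated counts per gene and library, held as whole numbers without normalization, and they were used as deposited. How they were made whole is not given in the sources used here. All 96 columns have labels (0 without), and groups, batches and animal numbers were taken from them.

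The tools were edgeR 4.0.16, DESeq2 1.42.0 and limma 3.58.1 under R 4.3.3, with matplotlib 3.10.9 under Python 3.11.15 for the plots. A gene was tested (16879 were) if its normalized count was above 10 in 3 or more of the 94 libraries. NIC and SAL were compared within each sex and region by edgeR's quasi-likelihood test with TMM scaling, no covariate and Benjamini-Hochberg adjustment over all genes, and Nrgn also by an exact permutation test on log2 CPM (prior count 2). Regions were compared in 1 fit of 12 groups, which treats libraries of the same rat as independent, with the animal as a block as the alternative. SEs of edgeR are the size of the log2 value over the square root of its F statistic. The fit was tested on simulated counts. Nrgn, the pathway and marker lists and the tests were chosen with earlier results of these data known. Named genes are Nrgn, Drd1, genes of these lists and the genes highest or lowest in r with Nrgn. Symbols came from the study's tables, which name 7582 identifiers (124 of 180 list genes). Genes without a symbol were counted only. The values of 1 gene of the pathway lists are not reported here, though it is counted.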

Additional observations from a re-analysis of the deposited data

Results flagged for a closer look

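Single libraries were looked for that lay far from the rest of their group, in 12 groups for Nrgn and 8 NAc groups for Drd1 (20 in all, of which chance flags about 1). Nrgn in the library labelled female VTA nicotine 2 was at 1169 CPM, with the next value of its group at 497 CPM. In the same library Th was at 17.9 CPM, and its part in the Nrgn value was not tested. Nrgn in male NAc shell saline 1 was at 2918 CPM, with the next value at 1544 CPM, in a library where Drd1 was at 5.09 CPM. Drd1 in male NAc shell nicotine 12 was at 112 CPM, with the next value at 79.6 CPM, and Nrgn of that library, 814 CPM, was the lowest of its group.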

How the results depend on the processing

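Alternative settings left the 5 tested changes of Nrgn on the same side of the threshold: of 106 alternative values 90 kept their direction, 16 reversed and 0 had an adjusted p under 0.05 (0.495 to 1 by the tool of each setting). Apart from omissions of 1 library, the reversed values were -0.019 in female NAc core with all mapped libraries and 0.11 in female NAc shell with preparation batch as a covariate. With each library left out in turn, Nrgn ran from 0.08 to 0.34 in male VTA, -0.41 to -0.25 in male NAc core, -0.057 (without nicotine 9) to 0.39 (without saline 1) in male NAc shell, -0.12 (without nicotine 2) to 0.52 in female VTA, 0.05 to 0.23 in female NAc core and -0.19 to 0.10 in female NAc shell. For all genes, where edgeR called 0 in each comparison, DESeq2 called 4 in male NAc core, 2 in male NAc shell, 4 in female VTA, 3 in female NAc core and 9 in female NAc shell. A fit of all 12 groups called 1 in male VTA, 6 in female VTA and 2 in female NAc shell, the batch covariate called 1 in male NAc core, and single-library omissions called 0 to 1 in female NAc core, 0 to 3 in female NAc shell and 0 elsewhere.

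The correlation of Nrgn and Drd1 in NAc core was r = -0.321 (rho -0.116) after medians of sex and treatment and -0.278 (rho -0.281) after medians of sex and batch were subtracted, 0.301 in females alone and 0.496 with all mapped libraries, that is with female NAc core nicotine 1. In NAc shell it was -0.402 without the 2 libraries farthest in Drd1, -0.855 in males alone, 0.0377 in females alone and -0.341 without male 1 and male 9. The cause was not tested. With the animal as a replicate block, 13800 genes differed between VTA and NAc core, 13704 between VTA and NAc shell and 5689 between NAc core and NAc shell, against 13774, 13644 and 5460 without it. NIC and SAL rats are different animals and were not paired. The settings without male 1 and male 9, the levels without the 5 stand-apart libraries, the batch values without male 9 and the correlations within 1 sex were chosen after seeing the data. With 7 or 8 rats a group and batches tied to treatment, small changes of Nrgn may have been missed, and no limit of detection was worked out.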

Other observations

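The library labelled female NAc core nicotine 1, which entered no comparison above except where all mapped libraries are named, had 89.9 CPM of Nrgn, 1.69 CPM of Drd1 and 329 CPM of Th, against 1451 to 2861 CPM of Nrgn in the other 7 female NAc core NIC libraries. Over genes with a summed count of at least 20, its counts differed from those of female VTA nicotine 1 (82.2 CPM of Nrgn, 336 CPM of Th) with a chi-square statistic of 10.2 for each degree of freedom, from the other 7 female VTA NIC libraries with 17.5 to 100.001 and from the other 7 female NAc core NIC libraries with 161 to 230.2. The 28 pairs among the 8 female VTA NIC libraries had 12.8 to 99.0, and R1 and R2 of male VTA saline 5, from 1 rat, had 3.05.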
